A study of Mus musculus with 12 samples.

Results

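The 10 genes described here are immediate early response genes, matched by their GENCODE mouse symbol to the identifiers of the count tables: *Fos*, *Fosb*, *Jun*, *Junb*, *Egr1*, *Atf3*, *Ier2*, *Ier3*, *Dusp1* and *Nr4a1*. All 10 of them, out of 54446 identifiers in all, were found, and all 10 passed the filter on low counts in every comparison, so none was left out. The libraries came from CD11b+ myeloid cells taken from tumors that the colon carcinoma line MC38 had formed in WT mice. Every group was WT (*Ythdf2* f/f in the study's methods, so floxed without a Cre), and the methods describe young adult mice of both sexes. Ctrl mice were unirradiated, and IR mice had received 1 dose of 20 Gy to the tumor, with cells taken 3 days later. Each lysate gave an Input library, a measure of transcript abundance, and an IP library of the RNA recovered with an antibody against YTHDF2. There were 3 libraries in each of the 4 groups (Ctrl Input, IR Input, Ctrl IP, IR IP). Each came from pooled mice, and the methods call them technical replicates, so the p-values below measure the spread between these pools and libraries, which may be partly technical.

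Immediate early genes are transcribed within minutes of a stimulus without new protein synthesis, through serum response factor, ternary complex factors and CREB, and their mRNAs are mostly short-lived. In myeloid cells they are known for following Toll-like receptor and cytokine signals and stress, and they are also known to be switched on while tissue is dissociated. YTHDF2 is a cytoplasmic protein that binds RNA carrying m6A, often at GGACU, and brings it to decay. AU-rich elements, with the core AUUUA, are another signal for decay in the 3′UTRs of such mRNAs.

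The libraries held 27852948 to 42382532 counts on genes, so 3 counts, taken as the limit of detection, were worth 0.0708 to 0.108 CPM, the counts per 1e+06 counts of a library (counting error only). No library was a copy of another. The 10 genes took 0.0430% to 0.0438% of all counts in the Inputs of Ctrl and 0.0474% to 0.0491% in those of IR, and 0.0889% to 0.0930% and 0.0953% to 0.0984% in the respective IPs. Markers of the sorted cells were high: *Itgam*, which encodes CD11b, had mean levels of 944 CPM (Ctrl) and 1718 CPM (IR) in the Input. The 12 myeloid markers summed to 10298 to 11163 CPM in the unirradiated Inputs and 13831 to 14600 CPM in the irradiated, with 8 of 12 higher and 2 lower after IR. Summed markers of T, NK and erythroid cells stayed at or under 3.51 CPM in every Input. The 5 B cell markers summed to 22.1 to 23.6 CPM without and 32.0 to 35.3 CPM with IR, and the 5 epithelial markers to 119 to 127 CPM and 90.9 to 96.9 CPM. *Cdh1* made up most of the last sum, and *Krt19* had no count in any library. The part of these shifts in the results below was not tested, and in such bulk samples fewer cells of a type and less RNA per cell cannot be told apart.

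Stretches of the 3′UTRs show the letters of both decay signals in the members with the largest differences between IP and Input. They were read from the GENCODE M21 transcripts (GRCm38), 1 transcript a gene, written as DNA, 5′ to 3′, with the ATTTA in capitals, and positions count from the first base of the 3′UTR. *Fos* is shown at positions 645 to 669 and *Dusp1* at 97 to 121, the members depleted in the IP. *Jun* is shown at 1033 to 1057, *Atf3* at 214 to 238, *Junb* at 242 to 266 and *Ier3* at 177 to 201, all enriched in Ctrl.
Fos: tgttttcaATTTATTTAttaagatg
Dusp1: tggtccttATTTATTTAacaccccc
Jun: cATTTAtaatcataggaaagATTTA
Atf3: caattccaggATTTAggccttatca
Junb: atatttgtgtATTTAacagggaggg
Ier3: attaatATTTAtgtATTTAtgtata

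GGACT was found in the 3′UTR of the same 6 genes, but it does not set them apart. It is also in the 3′UTRs of *Fosb* (1), *Egr1* (1) and *Ier2* (4), and *Nr4a1* has 0. The stretches around it are at positions 144 to 168 in *Fos*, 262 to 286 in *Dusp1* and 116 to 140 in *Jun*. In *Atf3* the stretch is at 824 to 848, in *Junb* at 112 to 136 and in *Ier3* at 338 to 362 (GGACT in capitals). A match is a description of the letters and not a methylated or bound site, since no m6A data were used here.
Fos: tgggcctcaaGGACTtgcaagcatc
Dusp1: agaagagaaaGGACTctgtttgagg
Jun: tacacaagatGGACTgggttgcgac
Atf3: aaagggtgtaGGACTccatactcag
Junb: ctcacacactGGACTccggcccgcc
Ier3: ccgggtggtaGGACTcccagcttgg

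All 10 transcripts hold GGACT, as do 87.1% of 21797 protein-coding transcripts, and 9 of the 10 lie above the median of 1.02 GGACT per kb of transcript. *Ier2* has the most, with 3.29 per kb. ATTTA is present in 9 of the 10 3′UTRs, against 62.7% of the 20731 with a 3′UTR, and the longer TATTTAT, which overlaps it, in 6 against 26.1%. *Ier3* carries 5 ATTTA in 613 bases of 3′UTR and *Ier2* none in 755 bases. *Fos*, *Jun* and *Dusp1* carry 4 each. The members are short: 7 of 10 transcripts lie under the median length of 2574 bases.

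The promoters of *Fos* and *Dusp1*, the pair depleted in the IP, are shown because both carry the TGACG of the CREB and ATF recognition site, in capitals with the TATAAA of *Fos*. They are RefSeq sequences of GRCm38.p6, 250 bases before to 50 bases after the start of transcription, on the plus strand at chr12:85473640-85473939 for *Fos* and on the minus strand at chr17:26508423-26508722 for *Dusp1*.
Fos: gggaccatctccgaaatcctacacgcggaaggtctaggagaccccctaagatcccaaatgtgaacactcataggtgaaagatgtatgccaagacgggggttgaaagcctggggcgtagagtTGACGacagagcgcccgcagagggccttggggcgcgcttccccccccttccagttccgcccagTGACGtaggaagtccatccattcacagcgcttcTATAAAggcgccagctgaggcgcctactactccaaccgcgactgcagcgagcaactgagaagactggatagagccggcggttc
Dusp1: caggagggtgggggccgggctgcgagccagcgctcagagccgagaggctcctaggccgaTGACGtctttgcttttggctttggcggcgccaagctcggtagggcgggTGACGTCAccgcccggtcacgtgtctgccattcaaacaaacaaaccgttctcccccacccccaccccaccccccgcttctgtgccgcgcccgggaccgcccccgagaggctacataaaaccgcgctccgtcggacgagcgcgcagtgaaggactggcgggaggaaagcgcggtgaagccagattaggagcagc

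*Dusp1* alone among the 8 members with a promoter sequence holds the full TGACGTCA, which 1.79% of 32851 promoters hold. Both strands were searched. TGACG, a part of that site, was found in 6 of the 8, against 20.8% of all promoters, and TATAAA in 2 of the 8 (*Fos* and *Junb*), against 13.6%. TGANTCA, the AP-1 site, was found in 0 of the 8 and in 7.81% of all promoters, and the CArG box of serum response factor in 0 of the 8 and in 1.63%. No match says only that these letters are not in this window. *Egr1* and *Ier2* had no promoter sequence here.

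In the unirradiated Input the members spanned a wide range of levels, compared between genes as CPM per kb of exon. The length was that of the merged exons of all transcripts of a gene, 3509 bases for *Nr4a1* and 2301 for *Junb*. The single transcripts read above have 2553 and 1809 bases, while *Egr1* has 4484 by both. Orders and ratios between genes, here and below, depend on this choice of length. *Ier2*, a nuclear protein of the early response, was at 55.9 ± 2.67 (SD, n = 3, as for all levels below). *Ier3*, a small stress-response protein linked to NF-κB signalling and cell survival, followed at 42.8 ± 0.891, and the range of *Junb*, at 40.4 ± 1.79, overlapped with that of *Ier3*. *Jun* stood at 27.0 ± 0.599 and *Atf3*, a stress-induced bZIP repressor, at 17.6 ± 0.678. The MAP kinase phosphatase *Dusp1* was at 10.3 ± 0.0832. *Fos*, which pairs with Jun proteins in AP-1, reached only 4.98 ± 0.333, and *Egr1* (3.27 ± 0.409, a zinc finger factor) and *Nr4a1* (2.98 ± 0.330, an orphan nuclear receptor) overlapped each other below it. *Fosb* was lowest, at 0.753 ± 0.105. All other neighbours in this order had ranges that did not overlap. Per kb, *Jun* was 5.44 ± 0.254 times as abundant as *Fos* in the Ctrl Inputs. After IR *Ier3* (63.4 ± 1.04) stood above *Ier2* (55.6 ± 0.424) and *Nr4a1* (3.86 ± 0.178) above *Egr1* (2.47 ± 0.279), with no overlap in either pair, and the rest of the order was as in Ctrl. *Jun*, *Junb* and *Dusp1* share exon bases with a gene on the opposite strand (232 bases with *Junos*, 173 with *Prdx2* and 11 with *Ergic1*). The strand setting of the counting is not given in the sources used here, so reads in those bases cannot be assigned with certainty.

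**Figure D1:**
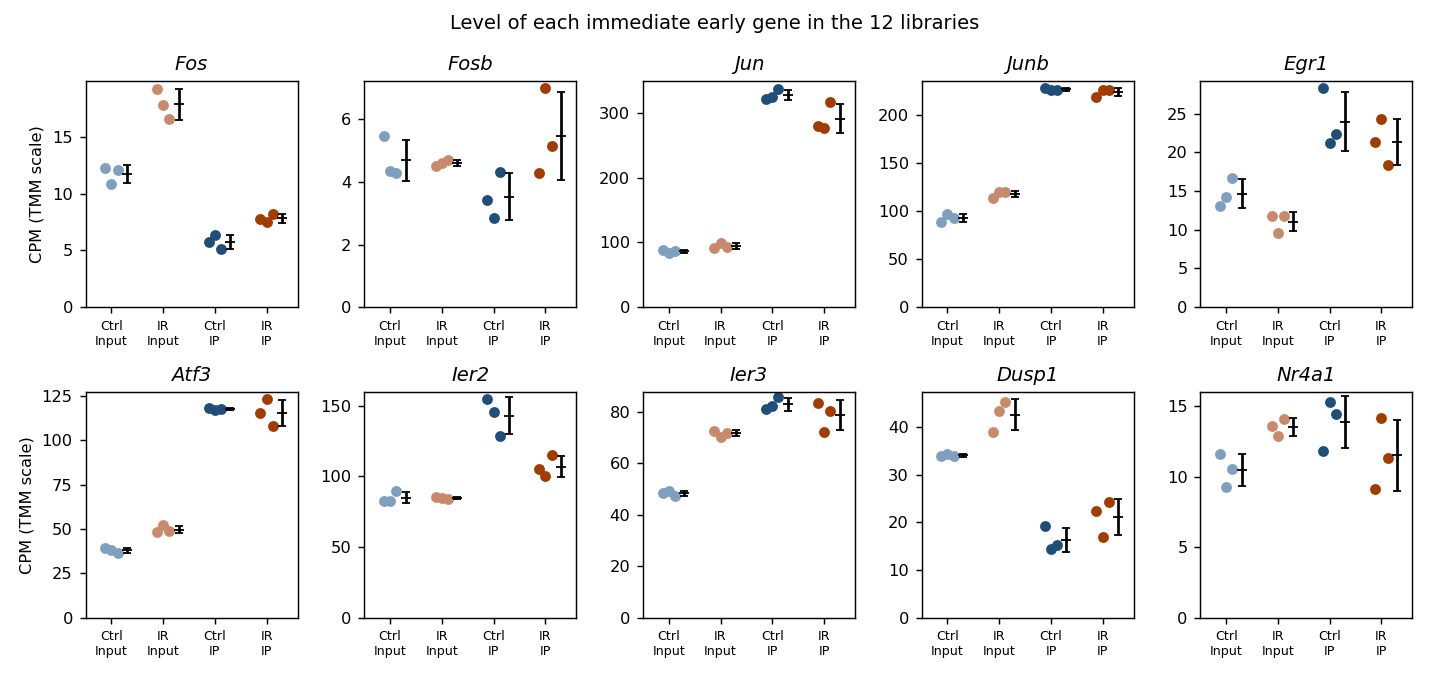
Level of each of the 10 genes (vertical axis, CPM with TMM scaling over the 12 libraries, from 0) in Ctrl Input, IR Input, Ctrl IP and IR IP (horizontal axis). Points are libraries and the black bars beside them are the mean ± SD of 3. *Jun*, *Junb* and *Atf3* lie far higher in both IP groups than in both Input groups, whereas *Fos* and *Dusp1* lie lower in both IP groups.

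The Input asks how irradiation changed transcript abundance in these cells. After IR, 6 of the 10 members were higher (*Fos*, *Ier3*, *Atf3*, *Nr4a1*, *Junb* and *Dusp1*), against 21.0% of the 16914 genes tested, and 1 was lower (*Egr1*), against 23.9%. The changes were modest: the median log2 fold change of the 10 was 0.25, beside 0.0072 for all genes tested. *Fosb*, *Jun* and *Ier2* did not pass the test. Tests in this paragraph and below used the quasi-likelihood model of edgeR, with p adjusted over all genes tested by Benjamini-Hochberg.

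Among the AP-1 subunits, *Fos* had 12.3, 10.8 and 12.04 CPM in the 3 Ctrl Inputs and 19.2, 17.8 and 16.5 CPM in the IR Inputs. All IR libraries lay above all Ctrl libraries, and the fitted rise was 1.44-fold (log2 0.53, SE 0.093, adjusted p = 3.21e-05). *Atf3* went from 39.4, 38.0 and 36.4 CPM to 48.1, 52.0 and 48.7 CPM (log2 0.31, SE 0.055, adjusted p = 4.06e-05), also without overlap. *Junb*, an AP-1 subunit that often opposes Jun, went from 88.9, 97.2 and 92.9 CPM to 114, 120 and 120 CPM (log2 0.26, SE 0.041, adjusted p = 6.03e-06), and its groups were likewise apart. *Jun* had 87.7, 84.0 and 86.7 CPM in Ctrl and 91.3, 98.9 and 93.2 CPM in IR (log2 0.05, SE 0.042, adjusted p = 0.322). Its groups were apart on this CPM scale, which is shared by all 12 libraries and puts the IR Inputs 0.079 higher on the log2 scale (median over genes) than the fit of the Inputs alone. *Fosb* had 4.30 to 5.46 CPM in Ctrl and 4.50 to 4.71 CPM in IR, and the groups overlapped (log2 -0.11, SE 0.15, adjusted p = 0.620).

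*Egr1* was the only member that fell. It had 13.1, 14.3 and 16.7 CPM in the Ctrl Inputs and 11.8, 9.62 and 11.8 CPM in the IR Inputs, with no overlap, a 1.40-fold lower level (log2 -0.49, SE 0.11, adjusted p = 4.49e-04). The other nuclear factor outside AP-1, *Nr4a1*, went from 11.6, 9.27 and 10.6 CPM to 13.6, 12.9 and 14.1 CPM (log2 0.29, SE 0.10, adjusted p = 0.0207). The call of *Nr4a1* was lost without Ctrl Input replicate 2 (log2 0.21, adjusted p = 0.137), Ctrl Input replicate 3 (log2 0.29, adjusted p = 0.0541) or IR Input replicate 3 (log2 0.26, adjusted p = 0.0724). *Ier3* had the smallest adjusted p of the 10: 48.6, 49.3 and 47.3 CPM in Ctrl and 72.8, 70.5 and 72.0 CPM in IR, a 1.40-fold rise with tight replicates (log2 0.49, SE 0.046, adjusted p = 1.63e-09). *Dusp1* rose from 34.0, 34.4 and 33.9 CPM to 39.0, 43.5 and 45.3 CPM (log2 0.24, SE 0.060, adjusted p = 0.00161), and its groups were apart. *Ier2* stayed between 82.5 and 89.7 CPM in Ctrl and between 83.9 and 85.1 CPM in IR (log2 -0.09, SE 0.043, adjusted p = 0.102). In a fit of all 12 libraries the calls of *Egr1* (log2 -0.41, adjusted p = 0.0651), *Dusp1* (log2 0.32, adjusted p = 0.0828) and *Nr4a1* (log2 0.37, adjusted p = 0.139) were lost.

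The ratio of IP to Input asks which transcripts were recovered with YTHDF2 relative to their abundance. The libraries include no IP with a control antibody or from cells without *Ythdf2*, so background recovery was not separated from binding. In Ctrl, 7 of the 10 members were enriched in the IP (*Jun*, *Atf3*, *Junb*, *Ier3*, *Ier2*, *Egr1* and *Nr4a1*), against 34.1% of the 17416 genes tested. *Dusp1* and *Fos* were depleted, against 34.6% of all genes, and *Fosb* was not called. The median log2 ratio was 0.81, beside 0.02 for all genes tested.

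*Jun* had the highest ratio of the 10. It had 323, 326 and 337 CPM in the Ctrl IPs beside 84.0 to 87.7 CPM in the Inputs, 4.02-fold enriched (log2 2.01, SE 0.044, adjusted p = 8.09e-17), and 91.4% of the genes tested had a lower log2 ratio. *Atf3* followed with 118, 117 and 118 CPM in the IPs, 3.27-fold over its Inputs (log2 1.71, SE 0.058, adjusted p = 3.05e-14). *Junb*, with 229, 226 and 226 CPM in the IPs, was 2.57-fold enriched (log2 1.36, SE 0.047, adjusted p = 3.49e-14). In these 3 bZIP genes every IP lay far above every Input. *Fos*, whose protein pairs with Jun proteins, ran the other way, with 5.76, 6.37 and 5.14 CPM in the IPs beside 10.8 to 12.3 CPM in the Inputs. It was 1.93-fold lower without overlap (log2 -0.95, SE 0.15, adjusted p = 3.45e-05). *Fosb* had 3.42, 2.84 and 4.32 CPM in the IPs, overlapping its Inputs (log2 -0.34, SE 0.23, adjusted p = 0.202). Per kb of exon, *Jun* was thus 42.5 ± 5.42 times as abundant as *Fos* in the Ctrl IPs, against 5.44 in the Inputs, and *Jun* (103 ± 2.39 CPM per kb) led the order of the 10 in place of *Ier2*.

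*Ier3* (81.1, 82.2 and 86.0 CPM in the IPs, log2 0.86, SE 0.060, adjusted p = 6.68e-10) and *Ier2* (154, 146 and 129 CPM, log2 0.83, SE 0.064, adjusted p = 2.92e-09) were enriched to a similar degree, and each IP lay above each Input. *Egr1* had 28.3, 21.3 and 22.4 CPM in the IPs (log2 0.78, SE 0.13, adjusted p = 2.91e-05), again above all of its Inputs. *Nr4a1* had 11.8, 15.3 and 14.4 CPM in the IPs (log2 0.48, SE 0.14, adjusted p = 0.00653), and the lowest of them was just above the highest Input. Without Ctrl Input replicate 2 the enrichment of *Nr4a1* was log2 0.38 (adjusted p = 0.0575), and with library size only in place of TMM it was log2 0.30 (adjusted p = 0.0722). *Dusp1* had 19.2, 14.5 and 15.2 CPM in the IPs beside 33.9 to 34.4 CPM in the Inputs, 1.98-fold lower (log2 -0.99, SE 0.11, adjusted p = 2.36e-07), and only 20.8% of the genes tested had a lower log2 ratio. Library size only moved the median of all genes by -0.18 and left the direction of all 10 members as it was.

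**Figure D2:**
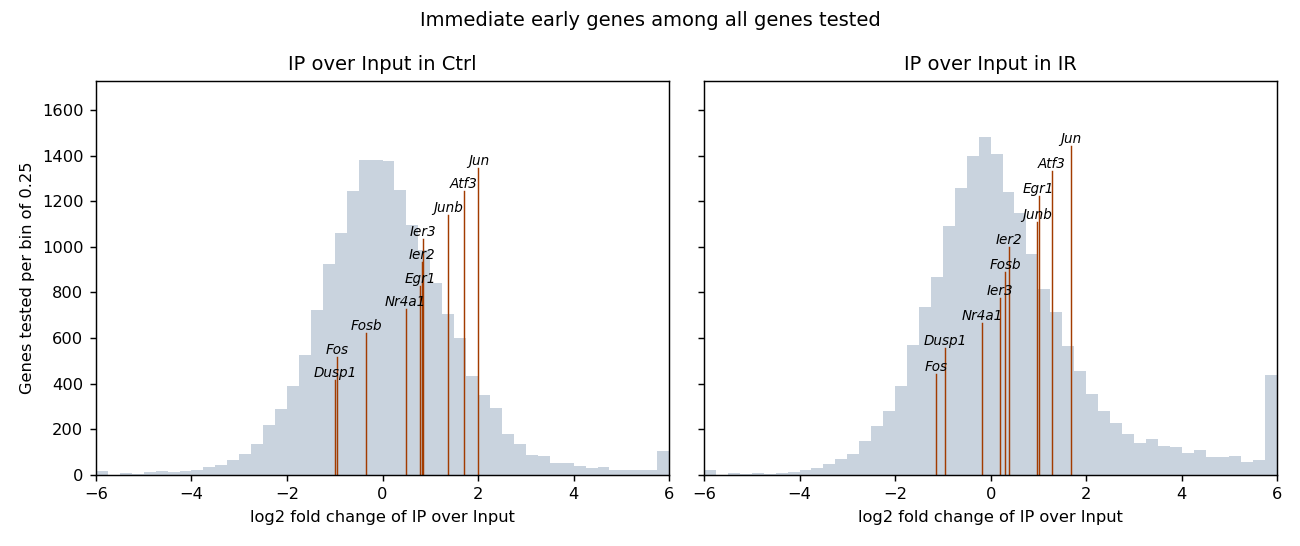
Histograms of log2 IP over Input for all genes tested (horizontal axis, bins of 0.25, the end bins also hold more extreme genes; vertical axis, genes per bin) in Ctrl and in IR, with the 10 members as labelled lines whose heights carry no value. *Jun* and *Atf3* lie in the right shoulder of both distributions, and *Fos* and *Dusp1* left of the peak of each.

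After IR, 6 of the 10 members were enriched in the IP (*Jun*, *Atf3*, *Egr1*, *Junb*, *Ier2* and *Ier3*), against 32.1% of the 18650 genes tested, and *Fos* and *Dusp1* were depleted, against 30.4%. Library size only moved the median of all genes by 0.15 and left the direction of these 8 as it was. The median log2 ratio was 0.35, beside 0.10 for all genes tested. *Jun* had 280, 277 and 317 CPM in the IR IPs, 3.21-fold over its IR Inputs (log2 1.68, SE 0.065, adjusted p = 2.51e-09). *Atf3* had 115, 123 and 108 CPM (2.42-fold, log2 1.28, SE 0.072, adjusted p = 5.64e-08) and *Junb* 219, 226 and 226 CPM (1.97-fold, log2 0.98, SE 0.050, adjusted p = 2.55e-08). Each of these IPs lay above each Input.

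*Egr1* reached 21.3, 24.4 and 18.4 CPM in the IR IPs, overlapping its Ctrl IPs, over a lower Input, for a 2.01-fold ratio (log2 1.01, SE 0.16, adjusted p = 2.22e-04). *Ier2* had 105, 100.2 and 115 CPM (log2 0.39, SE 0.067, adjusted p = 4.21e-04), all above its Inputs. *Ier3* had 83.7, 72.2 and 80.4 CPM, and the lowest of its IPs lay within the range of its Inputs (log2 0.19, SE 0.075, adjusted p = 0.0433). That call of *Ier3* was lost when IP and Input of the same lysate were paired (log2 0.19, adjusted p = 0.0650), without IR Input replicate 1, 2 or 3 (log2 0.19, 0.16 and 0.18, adjusted p = 0.106, 0.164 and 0.130), with no filter on low counts (log2 0.05, adjusted p = 0.605) and in a fit of all 12 libraries (log2 0.14, adjusted p = 0.0762). *Fos*, with 7.75, 7.47 and 8.21 CPM in the IPs, was 2.20-fold lower than in the Inputs (log2 -1.14, SE 0.15, adjusted p = 6.23e-05). *Dusp1*, with 22.4, 17.0 and 24.2 CPM, was 1.93-fold lower (log2 -0.95, SE 0.14, adjusted p = 1.26e-04). Neither gene's IPs reached its Inputs. *Nr4a1* (9.11, 14.1 and 11.3 CPM, log2 -0.18, SE 0.18, adjusted p = 0.419) and *Fosb* (4.28, 7.02 and 5.14 CPM, log2 0.31, SE 0.26, adjusted p = 0.321) overlapped their Inputs. Per kb of exon, *Jun* was 27.5 ± 0.921 times as abundant as *Fos* in the IR IPs and 3.92 ± 0.358 times in the IR Inputs.

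**Figure D3:**
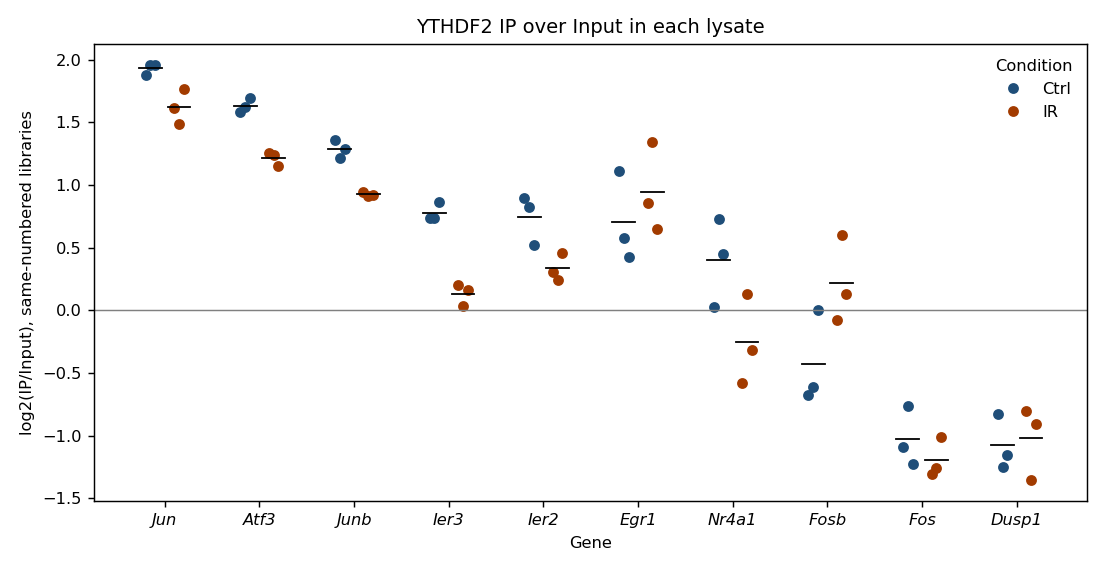
log2 of IP over Input (vertical axis) for each gene (horizontal axis) in each of the 3 Ctrl and 3 IR lysates, with IP and Input libraries of the same replicate number matched and CPM scaled by TMM over the 12 libraries. Points are lysates and bars are means. *Jun*, *Atf3*, *Junb*, *Ier3* and *Ier2* have all IR lysates below all Ctrl lysates, and *Fos* and *Dusp1* are below 0 in all 6.

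Whether IR changed this ratio was tested directly, as the interaction of fraction and condition over all 12 libraries. Relative to Input, 5 of the 10 members were recovered less after IR (*Ier3*, *Atf3*, *Ier2*, *Junb* and *Jun*), against 13.9% of the 20720 genes tested, and 0 more, against 6.28%. At an unadjusted p under 0.05 edgeR also called 0 higher, and DESeq2 0 by the adjusted p and 1 by the unadjusted p. The median change of the log2 ratio was -0.33, beside -0.08 for all genes tested. Many genes fell further than these 5. Of the genes tested, 16.9% had a lower change than *Ier3* and 29.1% a lower one than *Atf3*. For *Ier2*, *Junb* and *Jun* the shares were 29.2%, 32.2% and 35.9%. *Ier3* had log2 ratios of 0.74, 0.74 and 0.86 in the 3 Ctrl lysates and 0.20, 0.03 and 0.16 in the IR lysates (change -0.64, SE 0.094, adjusted p = 4.42e-05). *Atf3* went from 1.58, 1.62 and 1.69 to 1.26, 1.24 and 1.15 (change -0.41, SE 0.091, adjusted p = 0.00248). *Junb* went from 1.36, 1.22 and 1.28 to 0.94, 0.91 and 0.92 (change -0.36, SE 0.068, adjusted p = 6.00e-04). In all 3 genes the conditions were apart, with each IR lysate below each Ctrl lysate.

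The same was seen for *Ier2*, from 0.90, 0.82 and 0.52 to 0.31, 0.24 and 0.46 (change -0.41, SE 0.099, adjusted p = 0.00490), and for *Jun*, from 1.88, 1.95 and 1.96 to 1.62, 1.49 and 1.77 (change -0.30, SE 0.076, adjusted p = 0.00682). *Nr4a1* had a change close in size to that of *Ier3* but a wider spread, from 0.03, 0.72 and 0.45 to -0.58, 0.13 and -0.32 (change -0.63, SE 0.24, adjusted p = 0.0677). *Fosb* had a change of 0.67 (SE 0.35, adjusted p = 0.210) and *Egr1* of 0.24 (SE 0.21, adjusted p = 0.488), both with overlapping lysates. The 2 depleted genes showed no call, with a change of -0.17 for *Fos* (SE 0.21, adjusted p = 0.660) and 0.06 for *Dusp1* (SE 0.18, adjusted p = 0.880).

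These changes are relative to a scaling that takes most genes as unchanged. With library size only the median of all genes tested moved by 0.31, only *Ier3* of the 5 kept its call (log2 -0.33, adjusted p = 0.0180), and *Jun* was at 0.0075 (adjusted p = 0.973) and *Fos* at 0.14 (adjusted p = 0.718). The share of higher genes among all calls then went from 31.1% to 76.5%. A change of scaling moves all genes alike, so only the place of a gene among the others is free of it: relative to the median of all genes tested, *Ier3* was 0.56 lower, *Atf3* and *Ier2* 0.33, *Junb* 0.28 and *Jun* 0.22. Among uniquely aligned reads, the share that the counting assigned to no feature, which can lie in introns or between genes, moved with the groups. It was 26.9% to 27.0% (Ctrl) and 24.6% to 24.8% (IR) in the Input. In the IP it was 41.8% to 42.7% (Ctrl) and 49.4% to 54.1% (IR), and its part in these changes was not tested. The call of *Jun* was lost without Ctrl IP replicate 2 (log2 -0.24, adjusted p = 0.0625) or 3 (log2 -0.22, adjusted p = 0.0862), that of *Ier2* without Ctrl IP replicate 1 (log2 -0.29, adjusted p = 0.0535), and *Nr4a1* was called without IR IP replicate 2 (log2 -0.79, adjusted p = 0.0131).

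The IP libraries were also compared with each other, which asks how the share of each transcript in the recovered RNA changed. The total amount of recovered RNA is not measured in this way. Of the 10 members 1 was lower after IR (*Ier2*), against 9.85% of the 19255 genes tested, and 0 were higher, against 6.12%. At an unadjusted p under 0.05 edgeR also passed *Jun* and *Dusp1* (the latter higher), and DESeq2 gave 0 members higher by the adjusted p and 1 by the unadjusted p. The Ctrl and IR IPs used here are the same libraries as above, so these values stand beside the earlier ones and are not a separate line of data. *Ier2* fell from 154, 146 and 129 CPM to 105, 100.2 and 115 CPM, 1.33-fold (log2 -0.41, SE 0.082, adjusted p = 0.00266), while its Input had a log2 fold change of -0.09.

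For *Ier3*, *Atf3* and *Junb* the IP groups overlapped (log2 -0.06, -0.01 and -0.01, adjusted p = 0.685, 0.934 and 0.942), while their Inputs had risen by 0.49, 0.31 and 0.26 on the log2 scale. *Jun* had lower CPM in all 3 IR IPs than in all 3 Ctrl IPs but was not called (log2 -0.16, SE 0.059, adjusted p = 0.0795), and it passed without IR IP replicate 3 (log2 -0.22, adjusted p = 0.0138). *Fos* had higher CPM in all 3 IR IPs than in all 3 Ctrl IPs but was not called either. Its log2 of 0.45 (SE 0.24, adjusted p = 0.241) was close in size to its Input but with a wider error. *Dusp1* had log2 0.39 (SE 0.18, adjusted p = 0.157), and its IP groups overlapped. *Fosb* (log2 0.65, SE 0.33, adjusted p = 0.207), *Egr1* (log2 -0.15, SE 0.16, adjusted p = 0.592) and *Nr4a1* (log2 -0.25, SE 0.21, adjusted p = 0.470) overlapped between the conditions. With library size only the median of all genes moved by 0.21 and the share of higher genes among all calls from 38.3% to 76.3%. *Ier2* then lost its call (log2 -0.20, adjusted p = 0.103), and *Junb* (log2 0.20, adjusted p = 0.0179) and *Dusp1* (log2 0.59, adjusted p = 0.0308) were called higher. *Jun* (0.04), *Egr1* (0.05), *Atf3* (0.19) and *Ier3* (0.14) also changed sign with it and were not called.

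**Figure D4:**
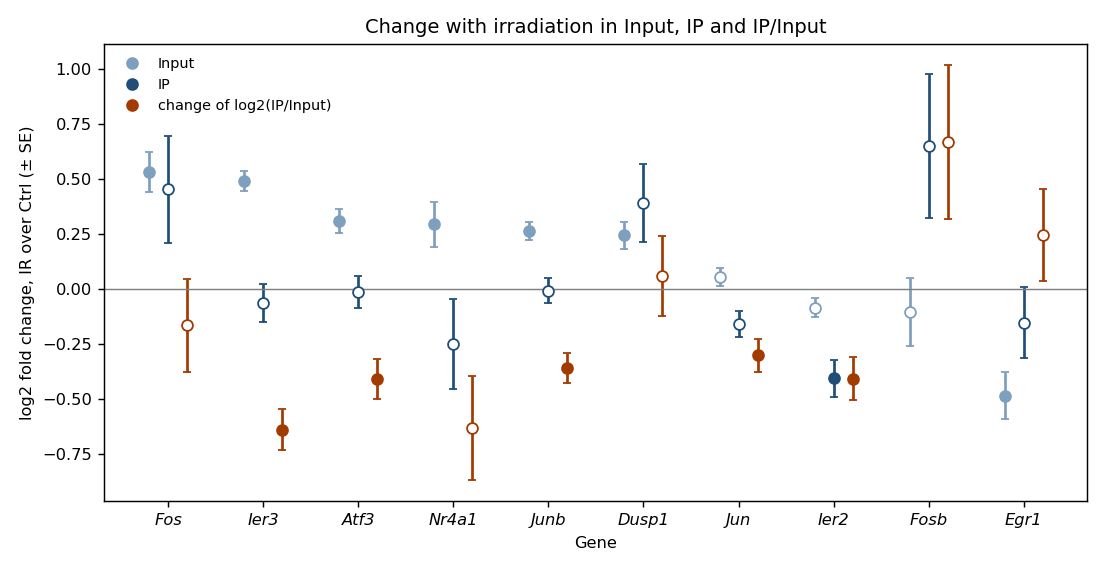
log2 fold change of IR over Ctrl (vertical axis, ± SE) for each gene (horizontal axis) in the Input, in the IP, and for the ratio of IP to Input. Filled points passed an adjusted p of 0.05 and open points did not. In the Input 6 genes are filled above 0 and *Egr1* below it, whereas in the IP only *Ier2* is filled.

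Members with the same number of ATTTA differed in their ratio. *Fos*, *Jun* and *Dusp1*, with 4 ATTTA each in the 3′UTR, had log2 ratios of -0.95, 2.01 and -0.99 in Ctrl, and *Ier3*, with 5, had 0.86. *Ier2*, with none, had 0.83. The longer TATTTAT occurs 4 times in the 3′UTR of *Ier3*, 3 times in *Dusp1* and 2 times in *Fos*. *Jun*, *Fosb* and *Atf3* have 1 each, and *Junb*, *Egr1*, *Ier2* and *Nr4a1* have 0. Over all genes tested with a 3′UTR, the median log2 ratio in Ctrl was -0.16 for the 3356 genes with 4 or more ATTTA and -0.06 for the 4361 with none, and in IR it was 0.03 for 3512 genes and -0.16 for 4660. GGACT per kb of transcript was highest in *Ier2* with 3.29, while *Jun* had 2.20, *Dusp1* 2.01, *Fos* 1.90 and *Atf3* 1.01. Whether any of these motifs bears on the ratio was not tested.

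Other genes of the same response gave the surroundings of the 10. Of 38 related immediate early genes found (of 39 listed), 20 were higher and 7 lower in the Input after IR, against 21.0% and 23.9% of all genes tested, with a median log2 of 0.12 against 0.0072. *Ier5l* (log2 1.32, SE 0.19, adjusted p = 1.44e-06) and *Btg2* (log2 0.86, SE 0.037, adjusted p = 3.73e-16), an antiproliferative gene, rose most by the rule for named genes, and *Myc* (log2 -1.13, SE 0.063, adjusted p = 4.95e-14), a growth-promoting factor, fell most. In the IP of Ctrl, 19 were enriched and 14 depleted (34.1% and 34.6% of all genes), led by *Trib1*, a pseudokinase that acts on C/EBP proteins (log2 2.60, SE 0.053, adjusted p = 3.10e-17), and *Ier5* (log2 2.07, SE 0.040, adjusted p = 1.91e-17). In IR, 16 were enriched and 11 depleted (32.1% and 30.4% of all genes). Between the IPs, 9 were higher after IR and 6 lower (6.12% and 9.85%). For the ratio itself, 15 of the 38 were lower after IR and 4 higher, against 13.9% and 6.28% of all genes (median -0.32, beside -0.08). *Klf4*, a zinc finger factor of monocyte differentiation, had a change of -0.86 (SE 0.11, adjusted p = 1.08e-05).

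Of 15 other bZIP genes whose proteins can pair with or act beside AP-1, 10 were enriched and 2 depleted in the Ctrl IP (34.1% and 34.6% of all genes) and 8 and 3 in the IR IP (32.1% and 30.4%). The lists share genes: some of the 15, among them *Jund* and *Fosl2*, are also counted among the related immediate early genes. *Atf2* is also among the upstream factors below. *Jund*, the remaining Jun protein, was enriched (log2 1.67, SE 0.038, adjusted p = 1.32e-16, in Ctrl, and log2 1.49, SE 0.053, adjusted p = 1.32e-09, in IR), as were *Jun* and *Junb*. *Fosl2*, a relative of *Fos*, was the 1 gene of the 15 with a higher ratio after IR (change 0.69, SE 0.086, adjusted p = 6.29e-06), while 6 had a lower one (6.28% and 13.9% of all genes), among them *Batf3* (change -0.91, SE 0.098, adjusted p = 1.02e-06), a factor of dendritic cell development. In the Input 5 of the 15 were higher and 4 lower after IR (21.0% and 23.9% of all genes), and in the IP 2 and 6 (6.12% and 9.85%). Of 25 upstream kinases and factors found (of 26 listed), 8 were enriched and 14 depleted in the Ctrl IP, and 5 and 14 in the IR IP, beside the same shares of all genes, so the enriched count in Ctrl was near the background. *Creb1*, whose product binds TGACGTCA, was enriched in both conditions (log2 1.79, SE 0.041, adjusted p = 1.46e-16, and log2 1.53, SE 0.050, adjusted p = 6.92e-10). In the Input 8 of the 25 were higher and 12 lower after IR (21.0% and 23.9% of all genes). Between the IPs, 1 was higher and 2 were lower (6.12% and 9.85%), and the ratio was higher for 4 and lower for 8 (6.28% and 13.9%).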

How the data were processed

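CD11b+ myeloid cells of WT mice gave 12 RIP-seq libraries, grouped by condition, fraction and replicate number from the sample titles. The authors trimmed reads (Trimmomatic 0.39), aligned them to mm10 (HISAT) and deposited whole-number HTSeq counts per GENCODE gene, not normalized. The methods name an antibody and RNA preparation that differ from the labels. Removal of duplicates is not given in the sources used here. Symbols and exon lengths came from GENCODE M21, a later release on the same build (99.9% of 54446 identifiers matched, 97.8% with their version; *Dusp1* matched without it, and its exon length is the longer model's).

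From the counts, edgeR 4.0.16 (R 4.3.3) gave TMM factors and quasi-likelihood tests for every gene that reached 10 counts in 3 or more of the compared libraries, with an adjusted p threshold of 0.05. Pairwise comparisons used only their own 6 libraries, and the change of the ratio all 12. SE is the absolute log2 fold change over the square root of F. CPM levels share TMM factors computed over the 12 libraries. The fits were tested on simulated data, where the share of false calls with edgeR was above the threshold between the IPs and for the change of the ratio. With DESeq2 this share was higher there, and it was also above the threshold for IP over Input in Ctrl and in IR. DESeq2 1.42.0, other scalings, filters, all 12 libraries in 1 fit, protein-coding nuclear genes only, a replicate block and leaving out each library were alternatives. IP and Input of 1 lysate share a replicate number, since the methods describe the Input as part of the lysate. Their deviations from the group means were hardly correlated (-0.019 to 0.015). Numbers do not pair Ctrl with IR.

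The members and all gene lists were chosen with earlier results of these data known. All 10 members were named throughout. From each other list, genes were named among the 2 with the largest change in each direction that passed the test, had groups apart and averaged 100 counts or more. Some genes of these lists are not reported here by name.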

Additional observations from a re-analysis of the deposited data

Results flagged for a closer look

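The log2 ratio of IP to Input of 5 members differed between Ctrl and IR by the interaction term of edgeR over all 12 libraries, with all IR lysates below all Ctrl lysates: *Ier3* (-0.64), *Atf3* (-0.41), *Ier2* (-0.41), *Junb* (-0.36) and *Jun* (-0.30). With library size only in place of TMM, *Ier3* alone of the 5 kept its call (-0.33). The calls of *Jun* and *Ier2* were also lost when certain single Ctrl IP libraries were left out. Groups of 3 libraries were too small for a test of single outlying samples.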

How the results depend on the processing

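Of 750 values recomputed for the 10 genes, 697 kept their direction and their side of the threshold, 22 lost and 10 gained a call, and 21 changed sign. Leaving out a library in turn accounted for 10 of the losses, 2 of the gains and 8 of the changes of sign. Members called lower in the Input were 2 with library size only and 0 in a fit of all 12 libraries, where 1500 genes fell and 63.6% of the calls were higher, against 46.8%. In the IP, members called higher were 2 with library size only and 2 in a fit of all 12 libraries. Members called lower there were 0 with library size only, 2 with no filter on low counts, 2 in a fit of all 12 libraries and 1 to 2 when a library was left out. With the replicate number as a block they were 2, since *Jun* was called (log2 -0.16, adjusted p = 0.0242); beside this and *Ier3* in IR (0.19, adjusted p = 0.0650) the block changed no call of a member. Genes higher in the IP were 2665 with library size only, 2125 in a fit of all 12 libraries and 715 to 1056 when a library was left out, against 1179, and genes lower 828 and 2952, against 1896. With library size only, the interaction gave 1 member lower, and 2862 genes higher and 877 lower, against 1301 and 2881. With that scaling *Junb* (0.20, called), *Jun* (0.044), *Egr1* (0.051), *Atf3* (0.19) and *Ier3* (0.14) changed sign in the IP, and *Jun* (0.0075, no longer called) and *Fos* (0.14) in the interaction. In the IP *Junb*, near 0, also changed sign with DESeq2's size factors (0.0036), DESeq2 (0.0036), 10 counts in every library (0.044) and protein-coding nuclear genes only (0.018), as did *Atf3* with the latter pair (0.039 and 0.014). Without a library in turn, the uncalled values that changed sign ranged from -0.17 to 0.015 for *Fosb* in the Input, -0.27 to 0.047 for the ratio of *Nr4a1* in IR, -0.011 to 0.018 for *Junb*, -0.050 to 0.041 for *Atf3* and -0.10 to 0.0056 for *Ier3* in the IP, and -0.0015 to 0.25 for *Dusp1* in the interaction. With at least 10 counts in every library *Jun* lost the latter call (-0.19, adjusted p = 0.0568), and with no filter *Jun* gained one in the IP (-0.19, adjusted p = 0.0449) and *Nr4a1* in the interaction (-0.66, adjusted p = 0.0488). *Ier2* was called lower in the Input with library size only (-0.11, adjusted p = 0.0493), and *Fos* (0.44, adjusted p = 0.0412), *Dusp1* (0.38, adjusted p = 0.0411) and *Jun* (-0.17, adjusted p = 0.0243) were called in the IP in a fit of all 12 libraries. Where no construction is named, the cause was not tested. The low counts of *Fosb* limit what its errors can show.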

Other observations

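Of 8 listed transcripts of proteins that bind AU-rich elements, 8 were depleted in the Ctrl IP, against 34.6% of all genes tested (median log2 -0.58), among them *Elavl1*, which stabilises such mRNAs (log2 -1.58, SE 0.089, adjusted p = 3.34e-11), and *Hnrnpd*, which is known as AUF1 (log2 -1.06, SE 0.054, adjusted p = 8.34e-12). In IR, 5 of the 8 were depleted and 2 enriched (30.4% and 32.1% of all genes), and the ratio was higher after IR for 4 of them (6.28%). In the Input 1 of the 8 was higher after IR, *Zfp36*, the decay factor tristetraprolin (log2 0.35, SE 0.046, adjusted p = 5.82e-07), and 5 were lower (21.0% and 23.9% of all genes). Between the IPs 2 were higher after IR (6.12%). *Zfp36*, *Zfp36l1* and *Zfp36l2* of this list are also counted among the related immediate early genes.

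Of 10 heat-shock genes tested in the Input (of 11 listed), which are known to rise during tissue handling as immediate early genes do, 4 were higher after IR and 3 lower, against 21.0% and 23.9% of all genes, with a median log2 of -0.0013. *Hspa1a* was higher (log2 0.69, SE 0.20, adjusted p = 0.00515) from a low level of 2.06 CPM, and *Hsph1* was lower (log2 -0.52, SE 0.066, adjusted p = 3.43e-07). In the Ctrl IP 3 were enriched and 5 depleted (34.1% and 34.6%), and in the IR IP also 3 and 5 (32.1% and 30.4%). Between the IPs 2 of 11 were lower after IR (9.85%), and the ratio was lower for 3 of 11 (13.9%).

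The protein-coding genes whose log2 CPM over the 12 libraries was most like the mean standardised profile of the 10 were *Srp72* (Pearson r 0.985), *Ulbp1* (0.983), *Gpr55* (0.980), *Rgl1* (0.979) and *Ssbp3* (0.978), of 10567 compared. The 12 libraries are split into IP and Input, so the points are not independent. *Fos* (-0.62) and *Dusp1* (-0.72) ran opposite to the profile of which they are part.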
